A study of Mus musculus with 6 samples.

Results

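Serpins, cystatins, stefins and their companions Slpi and A2m, the endogenous inhibitors of serine and cysteine proteases, were examined in whole lung of Scnn1b-transgenic (Scnn1b-Tg) mice, with wild-type (WT) lung as the comparison. Members were taken by gene symbol: every gene starting with Serpin or Stfa, the cystatins Cst3, Cst6, Cst7, Csta1 and Cstb, and Slpi and A2m, each with a probe set that carries no other symbol. This gave 57 genes of 19935 measured, namely 15 clade A serpins, 24 clade B serpins, 9 serpins of clades C to I, 4 stefins, 3 secreted cystatins, and Slpi with A2m. Genes reached only by probe sets shared between paralogs, or by none named in the annotation, were not analysed here.

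There were 6 Affymetrix arrays of total lung RNA, 3 of Scnn1b-Tg and 3 of WT, all of C57BL/6 background, made to look for candidate genes of emphysema. The labels give no age, sex, line or promoter, and they do not state whether each array had its own animal. The p-values therefore refer only to the spread among these 6 samples, which may be technical. The gene Scnn1b makes a subunit of the epithelial sodium channel, and in the commonly used Scnn1b-Tg mouse the transgene is driven by the promoter of the club cell secretory protein, so that it acts in airway cells, while the RNA here is of the whole lung. Scnn1b itself had an intensity of 1422 ± 98.3 in Scnn1b-Tg lung and 139.7 ± 31.9 in WT lung (SD, n = 3 each). Lung genes were present on all arrays, with mean intensities of 7973 in Scnn1b-Tg and 7948 in WT for Sftpc (surfactant protein C) and 2279 in Scnn1b-Tg and 2261 in WT for Ager. On a principal component analysis Scnn1b-Tg replicate 3 stood apart on the second component (13.3, the other arrays between -8.03 and 2.47), and WT replicate 2 on the first (16.3, the others between -8.91 and 5.46).

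Serpins trap a serine protease by offering an exposed reactive loop as bait, and the cut serpin then locks the enzyme in a dead complex. Clade A serpins are secreted, many of them by the liver. Clade B serpins stay mostly inside cells, where they guard leukocytes and epithelia against their own granule proteases. Cystatins and stefins block cysteine cathepsins, outside and inside the cell. In the lung, too little antiprotease activity against neutrophil elastase is the textbook route to emphysema.

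The sequences upstream of 3 members are shown, those with the 3 smallest p-values of all members in limma. Their values on the Scnn1b-Tg arrays did not overlap those of WT, Serpinb2 and Slpi above and Serpinb6b below. Other members without overlap are named further on. Each is the 250 bases before the annotated start in RefSeq (GRCm38.p6), 5′ to 3′ on the gene's strand. Capitals mark matches to the TATA box TATAAA or the AP-1 motif TGANTCA. The STAT motif TTCNNNGAA and the STAT6 motif TTCNNNNGAA were searched too and had no match in these 3 stretches. For Serpinb2, the first of 2 annotated starts is shown, at chr1:107511173-107511422 on the plus strand. The Slpi stretch lies at chr2:164356508-164356757 on the minus strand and that of Serpinb6b at chr13:32965011-32965260 on the plus strand.
Serpinb2: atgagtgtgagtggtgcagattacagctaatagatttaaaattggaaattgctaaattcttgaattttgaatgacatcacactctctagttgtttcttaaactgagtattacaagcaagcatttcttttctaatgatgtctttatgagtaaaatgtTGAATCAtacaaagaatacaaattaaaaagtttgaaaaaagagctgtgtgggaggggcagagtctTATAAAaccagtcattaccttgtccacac
Slpi: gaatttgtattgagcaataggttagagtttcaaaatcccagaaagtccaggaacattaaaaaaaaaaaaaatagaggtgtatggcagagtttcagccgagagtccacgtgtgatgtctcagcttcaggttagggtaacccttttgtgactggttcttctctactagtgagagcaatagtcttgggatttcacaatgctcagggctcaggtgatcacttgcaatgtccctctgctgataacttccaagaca
Serpinb6b: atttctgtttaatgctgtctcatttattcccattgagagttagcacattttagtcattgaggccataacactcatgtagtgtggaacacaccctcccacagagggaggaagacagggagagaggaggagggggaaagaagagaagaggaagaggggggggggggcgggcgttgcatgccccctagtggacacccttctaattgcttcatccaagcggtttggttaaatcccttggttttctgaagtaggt
The TATA box of Serpinb2 begins 29 bases before the start (position -29) and the AP-1 match at position -94. Over all 32851 upstream stretches of this length in the table, 12.4% held TATAAA, 6.75% TGANTCA, 7.02% TTCNNNGAA and 5.85% TTCNNNNGAA on either strand. For 47 of the 57 members the table held 55 stretches, some of them overlapping, of which 25.5%, 18.2%, 10.9% and 7.27% held the same motifs in the same order. A match is a run of letters and no evidence of binding.

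No member passed the test between genotypes. In limma, with Benjamini-Hochberg adjustment over all genes, 0 of 57 members had an adjusted p under 0.05, against 0.00502% of all genes (Scnn1b alone) and 0.00598% of those with a mean intensity of 25 or more. At an unadjusted p under 0.05, 3 members were higher in Scnn1b-Tg (5.26%, against 3.96% of all genes) and 2 were lower (3.51%, against 2.05%). The median log2 fold change (Scnn1b-Tg over WT) of the 57 members was -0.01, with a range from -0.16 to 0.61, and that of all genes was 0.0052. The 3 Scnn1b-Tg arrays lay wholly above the WT arrays for 3 members (5.26%, against 6.26% of all genes) and wholly below for 8 members (14.0%, against 4.41%). Those above were Serpinb2, Slpi and Serpinb3c, and those below were Serpinb6b, Serpinb1a, Stfa3, Serpina1c, Serpina1d, Serpina10, Serpini1 and Serpinb3d.

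Much of the family was near the bottom of the scale. Of the 57 members 29 had a mean intensity under 25 (50.9%, against 16.1% of all genes), where the lowest value of any array was 18.3 to 18.66. They were 9 clade A serpins, 16 clade B serpins, 1 serpin of clades C to I, 2 stefins and 1 secreted cystatin. Their log2 fold changes lay between -0.08 and 0.07, and 0 of these 29 had an unadjusted p under 0.05 in limma. Small gaps between the genotypes, such as those of Serpina1c (20.4 in Scnn1b-Tg and 21.6 in WT) and Serpinb3c (20.7 in Scnn1b-Tg and 20.2 in WT), are of intensities hardly above that lowest value. The other 28 members had a mean intensity of 25 or more. Of these, 3 were higher at an unadjusted p under 0.05 (10.7%, against 4.65% of all genes at that intensity) and 2 lower (7.14%, against 2.42%). Their arrays did not overlap upward for 2 (7.14%, against 6.67%) and downward for 5 (17.9%, against 4.28%).

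**Figure D1:**
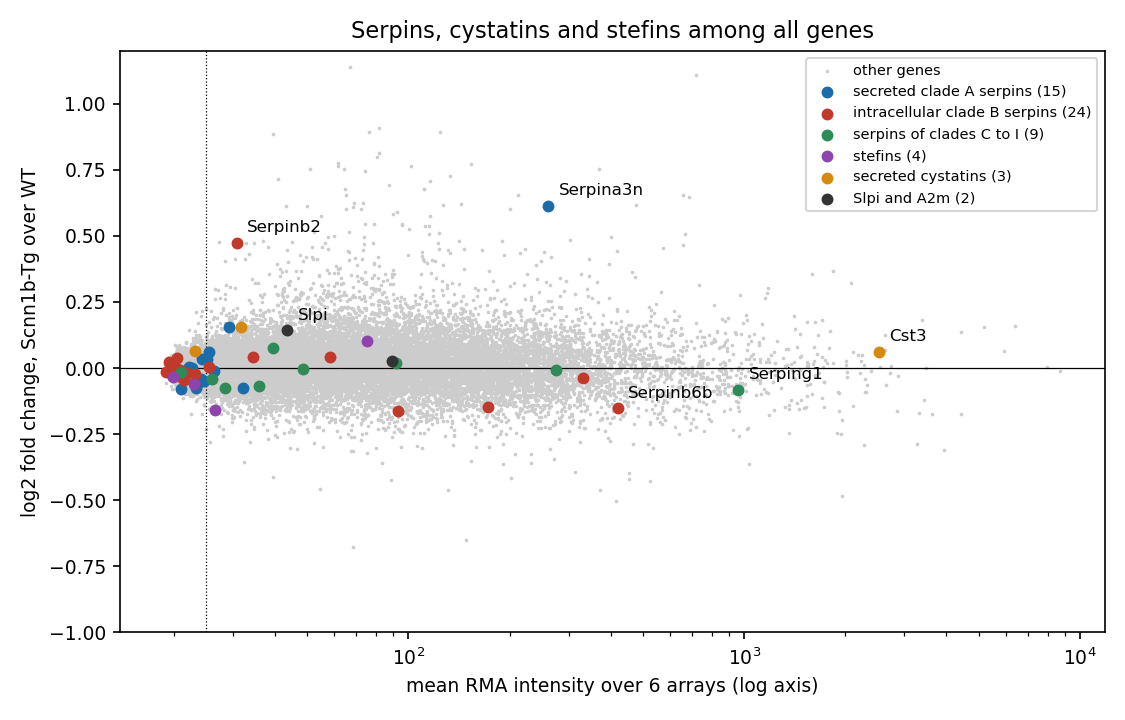
Log2 fold change (Scnn1b-Tg over WT) against mean RMA intensity over 6 arrays on a log axis, for the 57 members coloured by class and all other genes in grey, with 12 genes outside the vertical range not drawn. The dotted line marks an intensity of 25; Serpinb2 (0.47) and Serpina3n (0.61) stand above the other members.

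Among the clade B serpins, Serpinb2 gave the smallest p of all members. Serpinb2, plasminogen activator inhibitor 2, is made by stimulated monocytes and macrophages and by squamous epithelia. Its intensities were 39.5, 33.1 and 35.0 in Scnn1b-Tg lung, against 25.8, 24.8 and 26.7 in WT lung. Every Scnn1b-Tg array lay above every WT array. This was 1.39-fold, with a log2 difference of 0.47 ± 0.07 (SE), a confidence interval (95%) from 0.30 to 0.65, an unadjusted p of 0.000329 and an adjusted p of 0.168 in limma. That p was the 39th smallest of the 19935 genes. When limma's variance was robust and followed intensity, the adjusted p was 0.0231. After subtraction of 16 intensity units it was 0.0268, and the log2 fold change was then 1.02. Over all alternatives that held Serpinb2 the adjusted p ran from 0.0231 to 0.557. Its intensities were low, with a mean of 30.8 over the 6 arrays, whose lowest values were 18.3 to 18.66. Serpinb2 was among the 6645 dimmest genes, so the alternative without these did not hold it. Without both arrays that stood apart the log2 fold change was 0.46, with an adjusted p of 0.394.

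Markers of cells that can make Serpinb2 had the following values, and none of them passed over all genes in limma. Of 9 monocyte and interstitial macrophage markers 8 were higher in Scnn1b-Tg, 7 of them without overlap (77.8%, against 6.67% of all genes with a mean intensity of 25 or more), with summed intensities of 915.6 to 1072.2 in Scnn1b-Tg and 669.0 to 728.9 in WT. Of 8 alveolar macrophage markers 6 were higher, 3 of them without overlap (37.5%). Without Chil3 the other 7 summed to 985.8 to 1210.5 in Scnn1b-Tg and 992.6 to 1061.1 in WT, which overlap. Of 9 basal and squamous cell markers 6 were higher, with sums of 285.8 to 291.6 in Scnn1b-Tg and 274.1 to 283.1 in WT. Without Sprr1a the sums were 240.9 to 250.2 in Scnn1b-Tg and 234.8 to 247.2 in WT, which overlap. In whole lung, more cells of a type and more RNA per cell cannot be told apart, and the part of these cells in the Serpinb2 difference was not tested. Of the proteases that Serpinb2 inhibits, Plau (urokinase) had 43.1, 43.4 and 46.1 in Scnn1b-Tg, against 38.9, 38.1 and 40.5 in WT, again without overlap, a log2 fold change of 0.18 ± 0.05 (limma, adjusted p = 0.580). Plat (tissue plasminogen activator) gave -0.08 ± 0.19, with WT arrays spread from 120.4 to 201.9. In the plasminogen activation list as a whole, 1 of 4 genes (Plau) was higher at an unadjusted p under 0.05 in limma. That is 25%, against 4.65% of all genes with a mean intensity of 25 or more, and 0 of 4 passed over all genes.

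Some of the clade B serpins encoded together on chromosome 13 gave values in the other direction. Serpinb6b, a paralog of the cathepsin G inhibitor Serpinb6a, had 406.9, 395.8 and 388.4 in Scnn1b-Tg, against 420.1, 431.8 and 473.3 in WT. All Scnn1b-Tg arrays lay below all WT arrays, with a log2 fold change of -0.15 ± 0.06 (limma, adjusted p = 0.764). Serpinb1a, an inhibitor of neutrophil elastase, proteinase 3 and cathepsin G, had 88.7, 88.9 and 85.7 in Scnn1b-Tg, against 91.1, 98.7 and 105.3 in WT. The genotypes did not overlap here either, WT replicate 1 lying closest to the Scnn1b-Tg arrays, and the log2 fold change was -0.16 ± 0.06 with an adjusted p of 0.765. Serpinb9, the intracellular inhibitor of granzyme B, had 161.5, 173.4 and 155.9 in Scnn1b-Tg, against 164.9, 192.6 and 186.6 in WT, and the arrays overlapped at WT replicate 1. Its log2 fold change was -0.15 ± 0.07 (adjusted p = 0.869), and -0.07 without both arrays that stood apart.

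Not every gene of that cluster did this. Serpinb6a itself had 324.4, 329.9 and 324.4 in Scnn1b-Tg and 303.8, 338.9 and 365.1 in WT, which overlap, with a log2 fold change of -0.04 ± 0.07 that turned to 0.02 without WT replicate 3. Serpinb9b gave 0.04 ± 0.08. Over the 13 chromosome 13 members 11 had a negative value, with a median of -0.02, and 8 had a mean intensity under 25. By comparison, 36 of all 57 members and 9338 of all 19935 genes had a negative value. Over the 5 with a mean intensity of 25 or more the median was -0.15. Without WT replicate 3, Serpinb6b gave -0.10 and Serpinb1a -0.11. Of the nearest other measured genes on either side, Mylk4 gave -0.15 ± 0.05 and Wrnip1 0.03 ± 0.07 before the cluster, and Nqo2 gave 0.07 ± 0.06 and Bphl 0.08 ± 0.04 after it. These neighbours thus had values of both signs, and Mylk4 was lower without overlap, as were Serpinb6b and Serpinb1a. Farther out, Foxc1 gave -0.08 ± 0.07 and Gmds 0.03 ± 0.09 before the cluster. Tubb2a gave -0.15 ± 0.09 and Tubb2b -0.08 ± 0.10 after it.

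In the lists given here for leukocytes that use these serpins, more markers were higher than lower in Scnn1b-Tg. So were 10597 of all 19935 genes, and the counts for T and NK cells and for neutrophils lay near that share. The monocyte and interstitial macrophage markers given above were higher for 8 of 9. Of 9 T and NK cell markers 5 were higher, with sums of 393.7 to 430.7 in Scnn1b-Tg and 387.3 to 413.8 in WT. Of 12 neutrophil markers 7 were higher, with sums of 767.3 to 1020.8 in Scnn1b-Tg and 535.8 to 674.8 in WT. Without Retnlg the other 11 summed to 455.6 to 522.1 in Scnn1b-Tg and 441.4 to 488.2 in WT, which overlap. All 6 endothelial markers were lower, with sums of 4560.2 to 5027.9 in Scnn1b-Tg and 4966.3 to 5117.5 in WT, which overlap, and so were all 8 club cell markers, with sums of 10755.2 to 11488.5 in Scnn1b-Tg and 11928.5 to 14988.2 in WT, which do not. Without Scgb1a1 the other 7 club cell markers summed to 7376.3 to 8033.6 in Scnn1b-Tg and 7980.3 to 10409.3 in WT, which overlap narrowly. Their part in the values of Serpinb1a, Serpinb6b and Serpinb9 was not tested. The remaining clade B genes included Serpinb8, an inhibitor of furin in humans (0.04 ± 0.06), and Serpinb10, a serpin of blood cells (0.0022 ± 0.08). The other 16 had a mean intensity under 25, among them the squamous serpins Serpinb3a, Serpinb5 and Serpinb12.

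**Figure D2:**
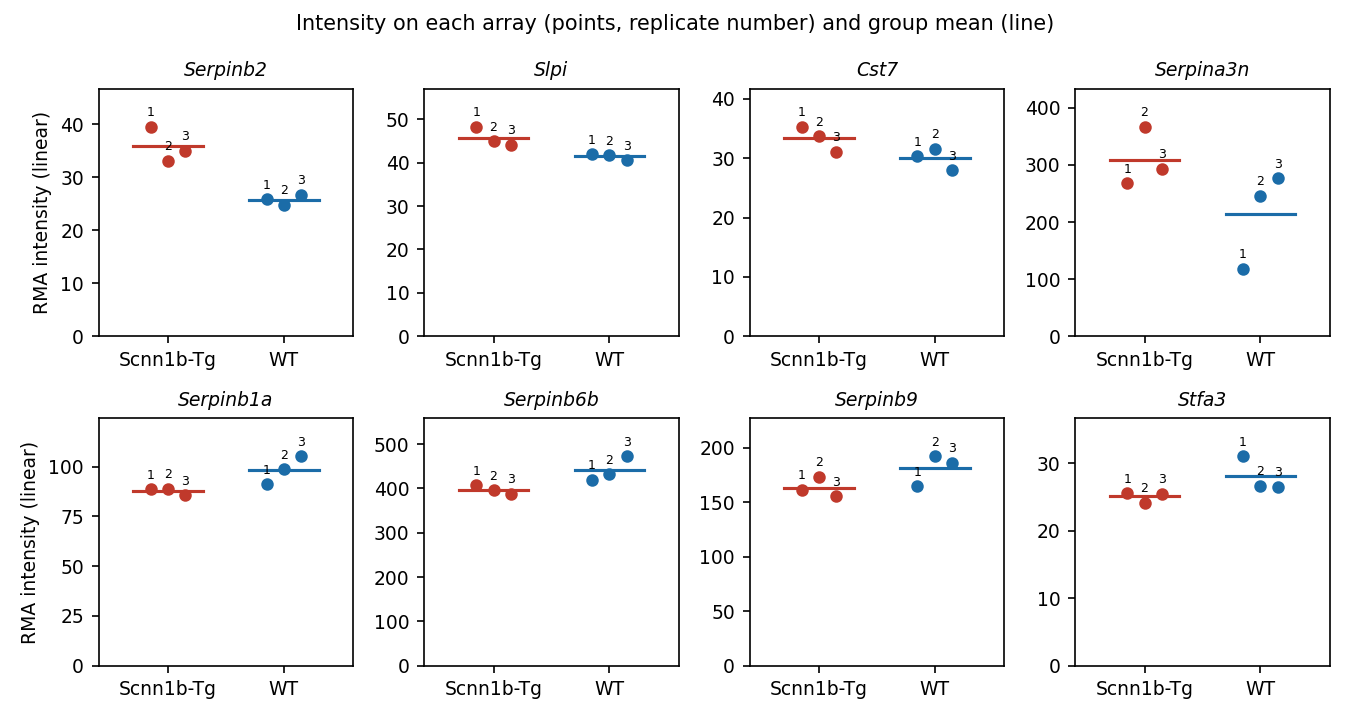
RMA intensity on a linear axis from 0 for 8 members, with 1 point per array (numbered by replicate) and a line at the mean of each genotype. Serpinb2 and Slpi lie higher on all 3 Scnn1b-Tg arrays, Serpinb1a, Serpinb6b and Stfa3 lie lower on all 3, and Serpina3n is spread widely, with WT replicate 1 at 118.0.

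Of the secreted clade A serpins, Serpina3n had the largest log2 fold change of all members and the widest spread. Serpina3n is an acute phase serpin that inhibits granzyme B and neutrophil serine proteases. Its intensities were 267.6, 366.6 and 293.0 in Scnn1b-Tg, against 118.0, 245.6 and 276.4 in WT. WT replicate 1 was low, and WT replicate 3 lay above Scnn1b-Tg replicate 1, so the groups overlapped. The fit gave a log2 fold change of 0.61 ± 0.31 (SE), an interval from -0.12 to 1.35 and an adjusted p of 0.870 in limma. Without WT replicate 1 it was 0.23, and without WT replicate 3 it was 0.85. The pooled SD within a genotype was 0.50 on the log2 scale for Serpina3n and 0.17 for Serpind1, the next largest, while the median over genes with a mean intensity of 25 or more was 0.09.

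Serpina11 had 31.4, 31.5 and 29.0 in Scnn1b-Tg and 27.8, 29.3 and 25.7 in WT, which overlap at WT replicate 2. Its log2 fold change was 0.15 ± 0.06 (adjusted p = 0.822 in limma, unadjusted p = 0.0475). Serpina10, which shuts off coagulation factor X with protein Z, had 30.5, 32.2 and 31.3 in Scnn1b-Tg and 32.3, 34.3 and 32.5 in WT. The highest Scnn1b-Tg array lay just below the lowest WT array, and the log2 fold change was -0.08 ± 0.05. Values of Serpina9, Serpina12 (vaspin) and Serpina16 lay between -0.01 and 0.06. Of the α1-antitrypsin genes, the main plasma inhibitors of neutrophil elastase, Serpina1c and Serpina1d were measured alone, at 20.4 and 22.7 in Scnn1b-Tg and 21.6 and 23.9 in WT, close to the lowest values of the arrays. Of 8 hepatocyte markers 6 were higher and 0 passed over all genes. Ttr gave 0.41 ± 0.08 without overlap (adjusted p = 0.275 in limma), while Alb gave 0.10 ± 0.06, with 34.3 in Scnn1b-Tg and 32.0 in WT, and Apoa1 -0.08 ± 0.07. Their part in the values of these serpins was not tested.

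Slpi and A2m act on proteases in the airway lumen and in fluids. Slpi, a secreted inhibitor of neutrophil elastase and cathepsin G made by airway epithelium and phagocytes, had 48.2, 44.9 and 44.1 in Scnn1b-Tg, against 42.0, 41.7 and 40.5 in WT. All 3 Scnn1b-Tg arrays lay above the WT arrays, with a log2 fold change of 0.14 ± 0.05 (SE), an interval from 0.03 to 0.26 and an adjusted p of 0.757 in limma. Leaving out 1 array at a time gave 0.10 to 0.17, and the value was 0.18 without both arrays that stood apart. Goblet cell markers, which share the airway epithelium with Slpi, were higher for 6 of 7, with sums of 1401.8 to 1813.3 in Scnn1b-Tg and 747.5 to 1484.4 in WT, which overlap. Without Clca1 the other 6 summed to 619.0 to 714.9 in Scnn1b-Tg and 560.7 to 590.3 in WT, which do not. Club cell markers, of the same epithelium, were lower for 8 of 8. Among phagocytes, 8 of 9 monocyte and interstitial macrophage markers, 6 of 8 alveolar macrophage markers and 7 of 12 neutrophil markers were higher. Of all genes with a mean intensity of 25 or more, 9170 of 16720 were higher. The part of any of these cells in the Slpi value was not tested. A2m, the broad protease trap α2-macroglobulin, had 92.4, 88.9 and 88.0 in Scnn1b-Tg, within the WT values of 100.9, 79.2 and 85.9. Its log2 fold change was 0.03 ± 0.09, and its sign turned without WT replicate 2 (-0.05), with quantile normalization and with median centring.

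The proteases that Slpi, Serpinb1a and α1-antitrypsin hold in check gave no such values. Of Elane (neutrophil elastase), Prtn3 (proteinase 3) and Ctsg (cathepsin G), 0 of 3 had an unadjusted p under 0.05 in limma. Elane averaged 26.7 in Scnn1b-Tg and 28.1 in WT, a log2 fold change of -0.07 ± 0.07. These genes are transcribed mainly in bone marrow precursors, and mature neutrophils carry the enzymes as stored protein. Granzymes and mast cell proteases also had 0 of 10 below an unadjusted p of 0.05. Intensities were low in both lists. Over the 6 arrays Elane averaged 27.4, Prtn3 28.9 and Ctsg 24.3, and 5 of the 10 others had a mean under 25. Of all genes with a mean under 25, only 0.342% were higher and 0.124% lower at that p in limma. The counts of 0 therefore show little for genes so dim.

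The serpins of clades C to I had values close to 0. Serping1, the C1 inhibitor that restrains complement and kallikrein, had 965.2, 964.4 and 869.3 in Scnn1b-Tg and 941.1, 1026.8 and 993.5 in WT. The groups overlapped, with a log2 fold change of -0.08 ± 0.06 (SE) and -0.0032 without both arrays that stood apart. Serpinh1 (HSP47), the collagen chaperone of the endoplasmic reticulum, had 275.7, 281.2 and 265.0 in Scnn1b-Tg and 271.0, 284.9 and 269.4 in WT. Its log2 fold change was -0.0059 ± 0.05, with an interval from -0.12 to 0.11 and a sign that turned with array weights, without Scnn1b-Tg replicate 3 and without WT replicate 2. Among 13 of its collagen clients and collagen-modifying partners 10 were higher, against 9170 of 16720 genes with a mean intensity of 25 or more. The median of the 13 was 0.12, and 0 passed over all genes. Plod3 alone had an unadjusted p under 0.05 in limma (0.13 ± 0.05). That is 7.69%, against 4.65% higher among all genes with a mean intensity of 25 or more. Col1a1 gave 0.30 ± 0.16, its lowest value being 812.6 on WT replicate 2, an array that stood apart. Col4a1, Col4a2 and Col5a1 were also lowest on that array, while P4ha1 and P4ha2 were highest on it.

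Serpinf1 (PEDF), a serpin without inhibitory activity that acts on vessels, had 92.8, 94.4 and 89.7 in Scnn1b-Tg and 93.2, 85.3 and 94.9 in WT. Its log2 fold change was 0.02 ± 0.05, with an interval from -0.11 to 0.15. The sign turned with quantile normalization, with median centring, and without WT replicate 2. Serpinf2 (α2-antiplasmin) had 42.3, 41.8 and 37.8 in Scnn1b-Tg and 37.3, 39.8 and 38.4 in WT, which overlap at Scnn1b-Tg replicate 3, with 0.08 ± 0.06. Serpinc1 (antithrombin) had 25.02, 26.4 and 25.5 in Scnn1b-Tg and 26.4, 25.5 and 27.4 in WT, which overlap, with -0.04 ± 0.05. Serpind1 (heparin cofactor II) gave -0.0024 ± 0.11, and Serpine3 -0.07 ± 0.07. Serpini1 (neuroserpin, which inhibits tissue plasminogen activator) had 27.6, 27.4 and 27.8 in Scnn1b-Tg, below 29.1, 30.1 and 28.2 in WT, a log2 fold change of -0.08 ± 0.04 with an adjusted p of 0.892.

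Of the coagulation and complement proteases that these serpins act on, 2 of 9 were higher at an unadjusted p under 0.05 (22.2%, against 3.96% of all genes) and 0 lower, and 0 passed over all genes. F7 (factor VII) had 90.2, 94.8 and 92.8 in Scnn1b-Tg, against 67.0, 68.9 and 71.8 in WT, a log2 fold change of 0.42 ± 0.05 with an adjusted p of 0.109 in limma. F10 (factor X) gave 0.34 ± 0.06 (adjusted p = 0.216). F2 (prothrombin), whose active form antithrombin blocks, lay the other way at -0.10 ± 0.05 (adjusted p = 0.830), with 27.9, 28.9 and 27.9 in Scnn1b-Tg, all below 29.8, 31.6 and 29.7 in WT. The other 6 lay between -0.0048 and 0.14.

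**Figure D3:**
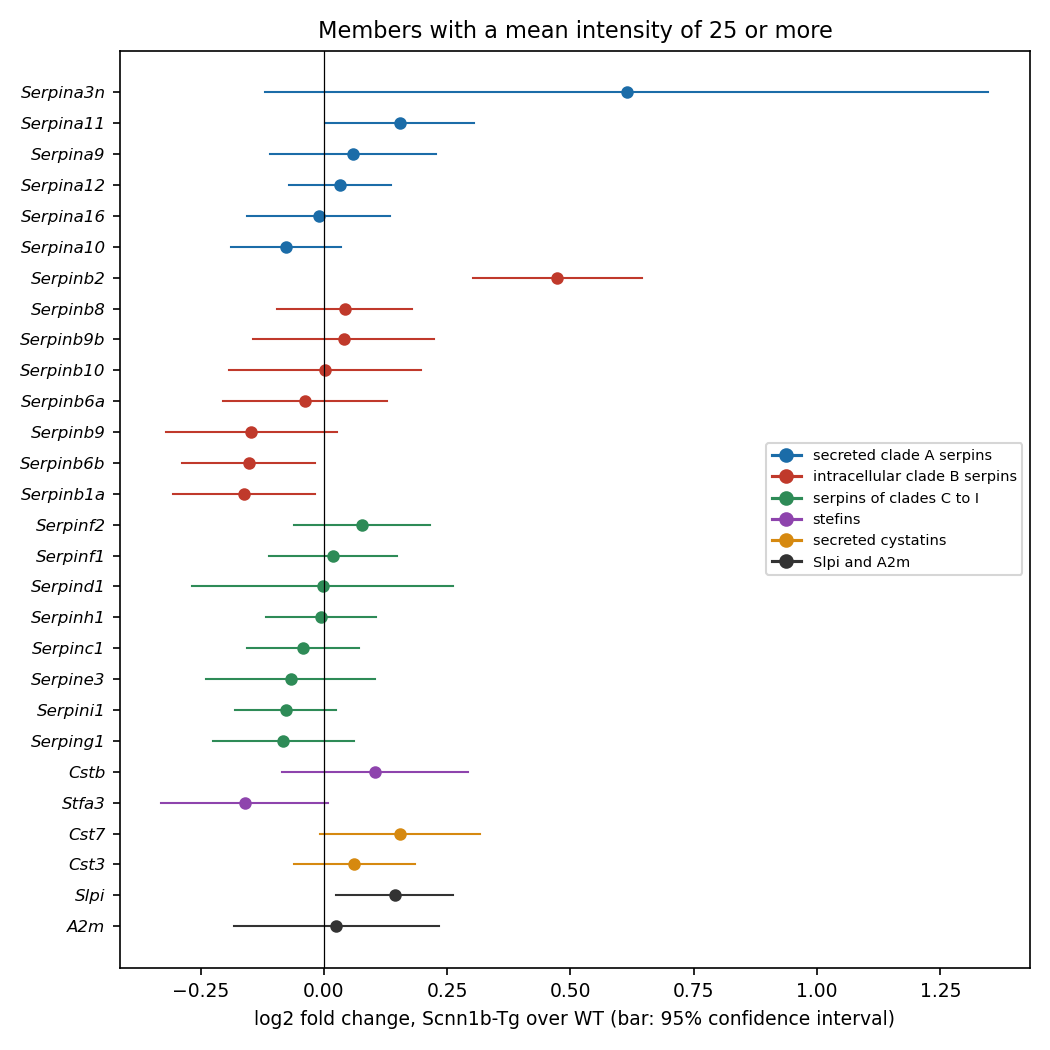
Log2 fold change (Scnn1b-Tg over WT) with its 95% confidence interval for the 28 members with a mean intensity of 25 or more, ordered by class. The intervals of Serpinb2, Slpi and Serpina11 lie above 0, those of Serpinb1a and Serpinb6b below 0, and those of the other 23 members include 0.

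The inhibitors of cysteine cathepsins divided by member. Cst3 (cystatin C), the general extracellular cathepsin inhibitor, had 2569, 2564 and 2563 in Scnn1b-Tg and 2599.8, 2457 and 2327 in WT. The Scnn1b-Tg arrays were nearly equal to each other and lay within the WT range, with a log2 fold change of 0.06 ± 0.05 (SE) and an interval from -0.06 to 0.18. Cst7 (cystatin F), which leukocytes make and deliver to endolysosomes where it controls cathepsin C, had 35.3, 33.7 and 31.1 in Scnn1b-Tg and 30.3, 31.6 and 27.9 in WT. Scnn1b-Tg replicate 3 lay below WT replicate 2, so the groups overlapped, and the log2 fold change was 0.16 ± 0.07 with an adjusted p of 0.830 in limma. It was 0.25 without both arrays that stood apart. Cst6 (cystatin E/M of skin and other epithelia) had 23.1, 24.6 and 23.5 in Scnn1b-Tg and 23.3, 23.3 and 21.5 in WT. These overlap, with a log2 fold change of 0.07 ± 0.05 (adjusted p = 0.932).

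The stefins, small cystatins of the cytoplasm, had 1 positive and 3 negative values. Cstb (stefin B) had 70.2, 79.6 and 84.4 in Scnn1b-Tg and 77.4, 69.8 and 70.4 in WT, which overlap, a log2 fold change of 0.10 ± 0.08 that was 0.02 without both arrays that stood apart. Stfa3, a mouse stefin A of myeloid cells, had 25.6, 24.1 and 25.5 in Scnn1b-Tg, below 31.1, 26.7 and 26.5 in WT. The log2 fold change was -0.16 ± 0.07 (adjusted p = 0.832), and -0.09 without WT replicate 1, the highest array. Stfa2 had 22.6, 21.9 and 23.0 in Scnn1b-Tg and 25.2, 24.1 and 21.3 in WT, a log2 fold change of -0.06 ± 0.07. Csta1 had 19.7, 19.5 and 19.8 in Scnn1b-Tg and 19.3, 20.3 and 20.9 in WT, a log2 fold change of -0.03 ± 0.05. Both overlap between the genotypes. Stfa genes are near-identical copies of each other, so that probes of one may bind transcripts of another. The neutrophil markers given above, which share their cell with the stefin A genes, had 7 of 12 higher and 5 lower, with a median of 0.03. Retnlg was the highest at 1.38 ± 0.35 and Mmp8 the lowest at -0.12 ± 0.05, both without overlap. The part of neutrophils in the Stfa3 value was not tested.

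The target enzymes had values of both signs. Of 11 cysteine cathepsins and legumain, 4 were higher at an unadjusted p under 0.05 (36.4%, against 4.65% of all genes with a mean intensity of 25 or more) and 1 was lower (9.09%, against 2.42%). The list's median was 0.14, and 0 passed over all genes in limma. Ctss (cathepsin S, an elastolytic enzyme of macrophages) had 851.3, 732.4 and 701.4 in Scnn1b-Tg, against 556.6, 549.4 and 541.6 in WT, without overlap. The log2 fold change was 0.47 ± 0.08, with an adjusted p of 0.187. Ctsk (cathepsin K) gave 0.62 ± 0.13 (adjusted p = 0.324) and Ctsb (cathepsin B) 0.22 ± 0.05 (adjusted p = 0.440). Ctso (cathepsin O) lay the other way at -0.20 ± 0.07, without overlap, and Ctsl gave -0.06 ± 0.06 and Ctsf -0.03 ± 0.08. Ctsc (cathepsin C, the enzyme that Cst7 controls) gave 0.07 ± 0.08. The inhibitors Cst7 at 0.16, Cstb at 0.10 and Cst3 at 0.06 thus lay within the range of the enzymes, and no difference between enzyme and inhibitor was tested. Alveolar macrophage markers were higher for 6 of 8, with sums of 3155.6 to 3796.4 in Scnn1b-Tg and 1800.9 to 2136.6 in WT. Without Chil3 the other 7 summed to 985.8 to 1210.5 in Scnn1b-Tg and 992.6 to 1061.1 in WT, which overlap, and none of the 8 passed over all genes. Their part in the values of enzymes and inhibitors was not tested.

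Other secreted inhibitors outside these families were measured for comparison. Of 21 genes 4 were higher at an unadjusted p under 0.05 (19.0%, against 3.96% of all genes) and 0 lower, with a median of 0.01, and 0 passed over all genes. The smallest p-values belonged to Timp1, the inducible metalloproteinase inhibitor (0.47 ± 0.09, adjusted p = 0.236 in limma), and Tfpi2 (0.30 ± 0.07, adjusted p = 0.442). Spint1, an inhibitor of the membrane serine proteases that cleave the epithelial sodium channel, gave 0.14 ± 0.05 (adjusted p = 0.757). Those membrane proteases had 0 of 10 below an unadjusted p of 0.05, with Furin at 0.24 ± 0.11. Of 6 receptors that clear serpin-protease complexes, Lrp1 alone had an unadjusted p under 0.05 in limma (0.23 ± 0.10, adjusted p = 0.822). That is 16.7%, against 3.96% of all genes that were higher.

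**Figure D4:**
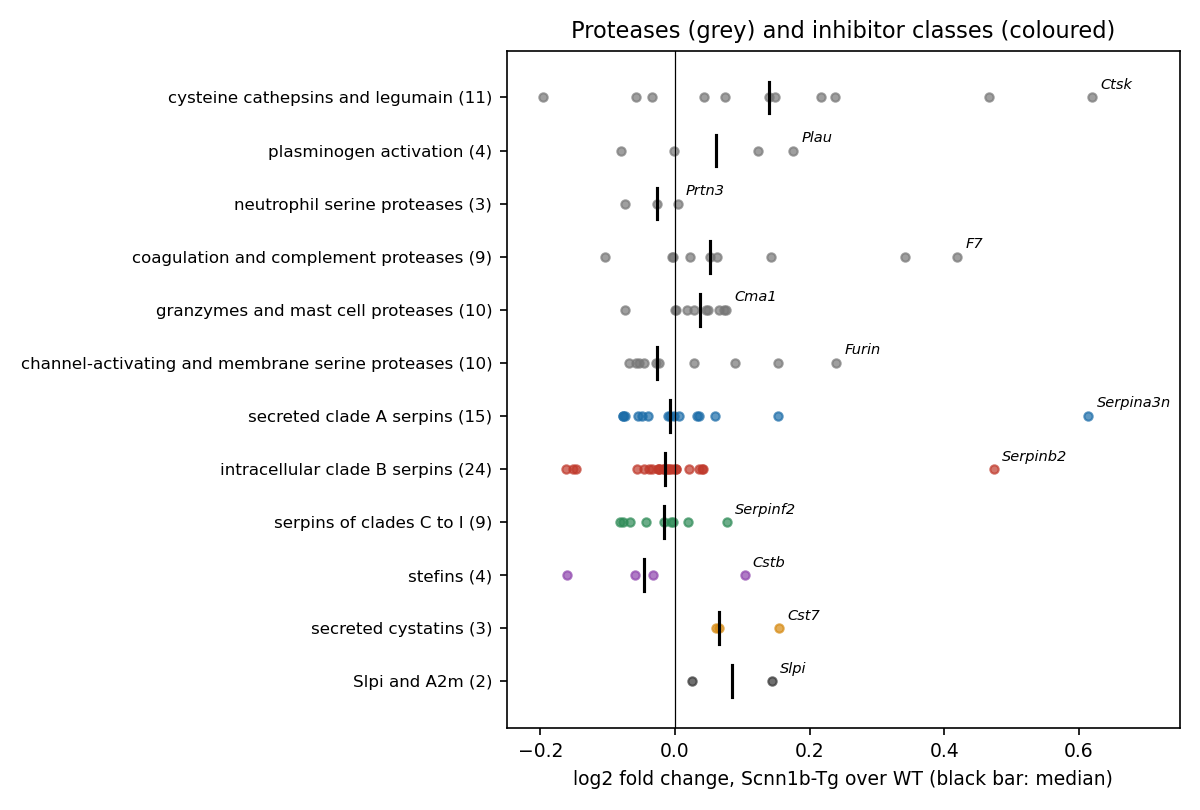
Log2 fold change (Scnn1b-Tg over WT) of each gene in 6 lists of proteases (grey) and in the 6 inhibitor classes (coloured), with a black bar at the median and the name of the highest gene. The cathepsin list has a median of 0.14 and reaches 0.62 at Ctsk. The medians of the inhibitor classes lie between -0.05 and 0.08, and the highest inhibitor, Serpina3n, reaches 0.61. All 11 genes of the cathepsin list had a mean intensity of 25 or more, against 28 of the 57 inhibitors.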

How the data were processed

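Total RNA of mouse lung was extracted with Trizol and labelled by a whole-transcript sense method for Affymetrix arrays, per the labels' protocols. The deposited values are linear intensities per probe set, made by the authors. The submitters' processing notes name RMA for them, with its settings not given in the sources used. The values themselves showed a linear scale, and they come with no background level. Of 28815 probe sets, 21780 carried 1 symbol, 1605 several and 5430 were not listed in the annotation used, and only the first kind was analysed. The probe set with the highest mean log2 intensity stood for each of 19935 genes, and each of the 57 members had a single probe set.

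Intensities were taken to log2, and limma 3.58.1 under R 4.3.3 fitted genotype as the only term (lmFit, eBayes; 6.99 degrees of freedom after moderation). Tests were two-sided. P-values were adjusted by Benjamini-Hochberg across the 19935 genes and called under 0.05. The fit was tested on simulated data. Fold changes are Scnn1b-Tg over WT; SE and intervals come from the fit. The number of arrays limits the precision. The labels give no batch, so none could be tested. Members, classes, lists and alternatives were chosen with earlier results of these data known. In full are given the 8 members with the smallest p, the 8 highest and 5 lowest log2 fold changes, members picked for their role, and the 2 brightest of each class; from other lists up to 3 genes with the smallest p, and some others as examples. Genes named outside this rule (Serpina1c, Serpina1d, Serpina9, Serpina12, Serpina16, Serpinb3a, Serpinb3c, Serpinb3d, Serpinb5, Serpinb8, Serpinb9b, Serpinb10, Serpinb12, Serpind1, Serpine3, Serpini1 and the neighbours on chromosome 13) were chosen after their values were seen. Same-numbered samples were not treated as pairs in the fit. Their deviations correlated at 0.0257, 0.0284 and 0.0395 across genes, and those of differently numbered samples at -0.0631 to 0.0236. With 3 arrays per group, these values cannot decide whether samples were paired.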

Additional observations from a re-analysis of the deposited data

How the results depend on the processing

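The 16 alternatives included other scalings (quantile, median), removal of the 6645 dimmest genes, other uses of probe sets, a trended robust variance, array weights, 16 subtracted from each intensity, a block for the replicate number and arrays left out. No member was called in 14 of them. 1 member, Serpinb2, was called with an intensity trend and robust variance (log2 fold change 0.47) and with 16 subtracted (1.015). Only 16 of 57 members remained without the dimmest genes, and Serpinb2 was not among them.

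The number of called genes, 1 in the fit reported, was 39 without the dimmest genes, 36 with the trended variance, 23 with 16 subtracted, 3 with the replicate block and 6 without both WT replicate 2 and Scnn1b-Tg replicate 3. With single arrays left out it ran from 0 (without WT replicate 3) to 5 (without Scnn1b-Tg replicate 3), and called members stayed at 0. Samples sharing a number were not shown to be paired, and with the replicate block the adjusted p of Serpinb2 was 0.277. The members' median was -0.036 with median centring, 0.0083 without the dimmest genes and -0.040 with 16 subtracted. Median centring moves the log2 fold change of every gene by the same amount, that of Serpinb2 from 0.4736 to 0.4482. The median without the dimmest genes is over only the 16 members left. Subtracting 16 widens log2 differences most at low intensities.

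Values near 0 changed sign. Serpinf1 was -0.0087 with quantile normalization, -0.0065 with median centring and -0.0077 without both arrays that stood apart. In the same order A2m was -0.0017, -0.00011 and -0.038. Serpinh1 was 0.017 with array weights and 0.043 without both arrays. With single arrays left out Serpinf1 ran from -0.028 to 0.049, A2m from -0.053 to 0.12, Serpinh1 from -0.025 to 0.020 and Serpinb6a from -0.11 to 0.024. The other 18 members given in full kept their sign in every alternative that held them. Intensities near the arrays' lowest value limit what 29 members can show. Sums of marker lists were also taken without the gene whose genotype means lay furthest apart, chosen after seeing the data.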

Other observations

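Probe sets shared by several paralogs were left out of the comparison, and their values cannot be assigned to 1 gene. A probe set shared by all 5 α1-antitrypsin genes had 31.8, 32.2 and 31.8 in Scnn1b-Tg, against 31.6, 34.3 and 30.65 in WT, which overlap. A second probe set of the same 5 genes had 23.1, 22.5 and 22.2 in Scnn1b-Tg, against 21.99, 23.2 and 21.98 in WT, which overlap too, with the opposite sign (0.013). A probe set shared by 3 stefin or stefin-like genes had 34.0, 36.2 and 41.6 in Scnn1b-Tg, against 50.0, 37.4 and 37.5 in WT, with WT replicate 1 highest as for Stfa3. A probe set shared by 2 stefin genes had 36.4, 38.8 and 55.0 in Scnn1b-Tg, against 51.0, 40.1 and 44.3 in WT, with the highest value on Scnn1b-Tg replicate 3. The log2 fold changes were -0.0086 for the first of these probe sets, -0.15 for that of the 3 genes and -0.07 for that of the 2 genes, without a test. Another 3 probe sets, shared by 4 genes of the Serpinb9 group, gave -0.03, -0.07 and -0.08.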
